A study of Mus musculus with 10 samples.

Results

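Cajal-Retzius (CR) cells are among the first neurons of the cortex. Many of them are born in the cortical hem (CH), the signaling center at the telencephalic dorsal midline, and they leave it to settle in the marginal zone, where they secrete Reelin. The 10 genes described here are 5 transcription factor genes and 5 marker genes of these cells, taken by gene symbol from the 52227 genes of the series. The factor genes are *Trp73*, *Eomes* (*Tbr2*), *Ebf1*, *Ebf2* and *Ebf3*, and the marker genes are *Car10*, *Chst8*, *Cacna2d2*, *Tmem163* and *Ndnf*. At e13.5 the CH was cut out by laser capture and its RNA sequenced, the sections of each embryo being pooled into a library of their own. Of the embryos 5 were wild-type and 5 were *Lmx1a*-/- littermates with the null allele *drJ* on both chromosomes, all on a mixed background of C57Bl6, FVB and CD1. Neighbouring sections, stained for Lmx1a, gave the bounds of the CH.

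As background, the *Ebf* genes encode helix-loop-helix factors that are switched on as neurons leave the cell cycle, *Eomes* encodes a T-box factor of cortical intermediate progenitors and CR cells, and *Trp73* encodes the p53 relative p73, on which the survival of CR cells depends. *Car10* encodes a carbonic anhydrase-related protein without catalytic activity, *Chst8* an enzyme that sulfates sugar chains of glycoproteins, *Cacna2d2* an auxiliary subunit of voltage-gated calcium channels, *Tmem163* a zinc transporter and *Ndnf* a secreted factor of CR cells and of some cortical interneurons. Lmx1a, a LIM homeodomain protein, is made by CH cells. The comparison asks which of these genes depend on the genotype and which of them vary together from embryo to embryo.

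The windows around the annotated start sites of the genes that the results turn on are printed first. RefSeq (GRCm38.p6) gave 11 windows of 250 bases before to 50 bases after a start for 8 of the 10 genes, and *Ebf2* and *Ndnf* had none. *Tmem163* is shown because it was the only one of the 10 genes that passed the threshold with a higher level, *Car10* because it had the largest fold decrease, and *Trp73* because it was the only factor gene that passed. *Tmem163* lies on the minus strand (chr1:127677972-127678271), *Car10* on the plus strand (chr11:93098116-93098415 and chr11:93099040-93099339) and *Trp73* on the minus strand (chr4:154139826-154140125 upstream and chr4:154097124-154097423 inside the gene). Capitals mark the homeodomain core TAATTA in *Tmem163* and the EBF core CCCNNGGG in *Car10*.
Tmem163: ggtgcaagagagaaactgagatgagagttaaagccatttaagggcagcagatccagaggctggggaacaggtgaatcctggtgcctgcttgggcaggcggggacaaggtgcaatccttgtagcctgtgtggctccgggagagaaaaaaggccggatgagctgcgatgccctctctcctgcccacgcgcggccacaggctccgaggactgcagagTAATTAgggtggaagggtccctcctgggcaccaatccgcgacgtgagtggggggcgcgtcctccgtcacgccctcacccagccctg
Car10, first start: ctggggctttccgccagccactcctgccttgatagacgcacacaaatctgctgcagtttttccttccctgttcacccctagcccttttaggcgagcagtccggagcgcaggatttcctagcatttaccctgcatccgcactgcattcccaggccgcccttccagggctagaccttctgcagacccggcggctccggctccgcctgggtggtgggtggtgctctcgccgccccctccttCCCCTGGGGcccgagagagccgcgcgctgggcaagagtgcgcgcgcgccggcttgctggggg
Car10, second start: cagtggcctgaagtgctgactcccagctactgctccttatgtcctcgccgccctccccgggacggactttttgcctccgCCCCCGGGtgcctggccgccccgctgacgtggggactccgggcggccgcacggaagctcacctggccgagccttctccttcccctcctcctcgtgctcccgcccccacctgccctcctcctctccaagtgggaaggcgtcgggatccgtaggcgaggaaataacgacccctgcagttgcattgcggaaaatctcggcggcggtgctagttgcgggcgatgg
Trp73, upstream start: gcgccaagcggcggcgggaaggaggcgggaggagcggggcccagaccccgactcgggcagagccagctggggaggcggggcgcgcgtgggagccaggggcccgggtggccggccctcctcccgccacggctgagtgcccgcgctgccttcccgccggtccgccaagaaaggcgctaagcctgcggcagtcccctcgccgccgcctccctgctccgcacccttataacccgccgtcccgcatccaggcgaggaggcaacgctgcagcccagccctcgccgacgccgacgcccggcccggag
Trp73, internal start: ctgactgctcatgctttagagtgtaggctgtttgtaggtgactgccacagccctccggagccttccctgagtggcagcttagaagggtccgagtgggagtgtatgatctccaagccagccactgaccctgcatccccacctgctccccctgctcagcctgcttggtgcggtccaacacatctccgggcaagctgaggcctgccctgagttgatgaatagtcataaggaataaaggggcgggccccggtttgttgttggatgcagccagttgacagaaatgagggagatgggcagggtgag

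Of 32851 RefSeq promoter windows, 5.29% held TAATTA on either strand, and among the windows of the 10 genes that of *Tmem163* did, 36 bases before the start. CCCNNGGG stood in 13.7% of all windows. It was found in both windows of *Car10*, 12 bases before the first start, where 2 matches overlap, and 171 bases before the second, and in that of *Ebf3*, 21 bases before the start. The T-box core GGTGTGA stood in 3.98% of all windows and was found, on the reverse strand, in a window of *Ebf1*, 78 bases before the start. The upstream window of *Trp73* had a GC content of 77.7% and the internal one 57.7%, against a median of 52.7% over all windows. An internal promoter of *Trp73* is known to give forms of p73 without the transactivation domain, and counts per gene do not separate transcripts by their start.

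The libraries held 19145952 to 36462780 counts, and each of the 10 genes passed the filter of at least 10 counts in at least 3 libraries. *Lmx1a* itself was transcribed in both genotypes, at 79.8, 80.0, 45.6, 59.7 and 90.8 CPM in wild-type embryos 1 to 5 and at 89.9, 101.8, 122, 145 and 111 CPM in *Lmx1a*-/- embryos 1 to 5. It passed the threshold as higher (log2 fold change 0.68, FDR = 0.0658 by edgeR). Transcripts of the *drJ* allele cannot be told from wild-type ones in counts per gene, so this level does not check the genotype. The CH genes *Wnt8b* (599 to 1097 CPM), *Wnt2b* (103 to 183 CPM) and *Wnt3a* (44.8 to 81.8 CPM) were present in every wild-type library. Of the CR cell markers, *Reln* (126 to 265 CPM), *Lhx1* (12.6 to 24.0 CPM) and *Nhlh2* (11.5 to 23.9 CPM) were present in every wild-type library, *Lhx5* was low (0.896 to 2.75 CPM) and *Calb2* did not pass the filter, with at most 14 counts in a library. Wild-type embryo 1 and all *Lmx1a*-/- embryos carried transcripts of Y-linked genes, while wild-type embryos 2 to 5 expressed *Xist*. In such bulk samples, fewer CR cells and less RNA per CR cell cannot be told apart.

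In *Lmx1a*-/- CH, *Trp73*, *Car10* and *Chst8* fell and *Tmem163* rose, while the levels of *Ebf1*, *Ebf2* and *Ebf3* differed by less than the spread between embryos. Thus 3 of the 10 genes passed the threshold (edgeR quasi-likelihood test, FDR under 0.1 over 21664 genes) as lower, against 2.29% of all genes, and 1 passed as higher, against 1.72%. The study named *Trp73*, *Eomes*, *Car10*, *Chst8* and *Cacna2d2* as lower and *Tmem163* as higher in these same embryos, so these counts are not independent evidence of a direction. Of the other 4 genes (*Ebf1*, *Ebf2*, *Ebf3* and *Ndnf*), 0 passed by this test, 1 (*Ndnf*) had an unadjusted p under 0.05, with a lower level, as did 8.7% of all genes, while 7.66% had one with a higher level, and 1 (*Ndnf*) passed with DESeq2. The number of lower genes rose to 6 with DESeq2, and 1 was higher, while DESeq2 called 5.47% of its genes lower and 4.43% higher. With the *Xist* level as a covariate 0 of the 10 genes passed by edgeR, 5 lower and 1 higher gene having an unadjusted p under 0.05, against 9.44% of all genes. The log2 fold changes in that fit were -1.09 (SE 0.27) for *Trp73*, -1.68 (SE 0.59) for *Car10*, -2.03 (SE 0.75) for *Chst8* and 2.675 (SE 0.49) for *Tmem163*. With the mean level of choroid plexus genes as a covariate 0 passed as well, and 1 lower and 1 higher gene had an unadjusted p under 0.05, against 6.72% of all genes. There they were -0.25 (SE 0.23) for *Trp73*, -1.12 (SE 0.63) for *Car10*, -0.51 (SE 0.73) for *Chst8* and 1.775 (SE 0.43) for *Tmem163*. Both covariates follow the genotype closely over the 10 libraries (-0.83 and -0.813 as Pearson's r, a description), and the SEs of these 4 genes were larger than without a covariate. The part of sex and of choroid plexus cells in the differences was not tested otherwise.

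**Figure D1:**
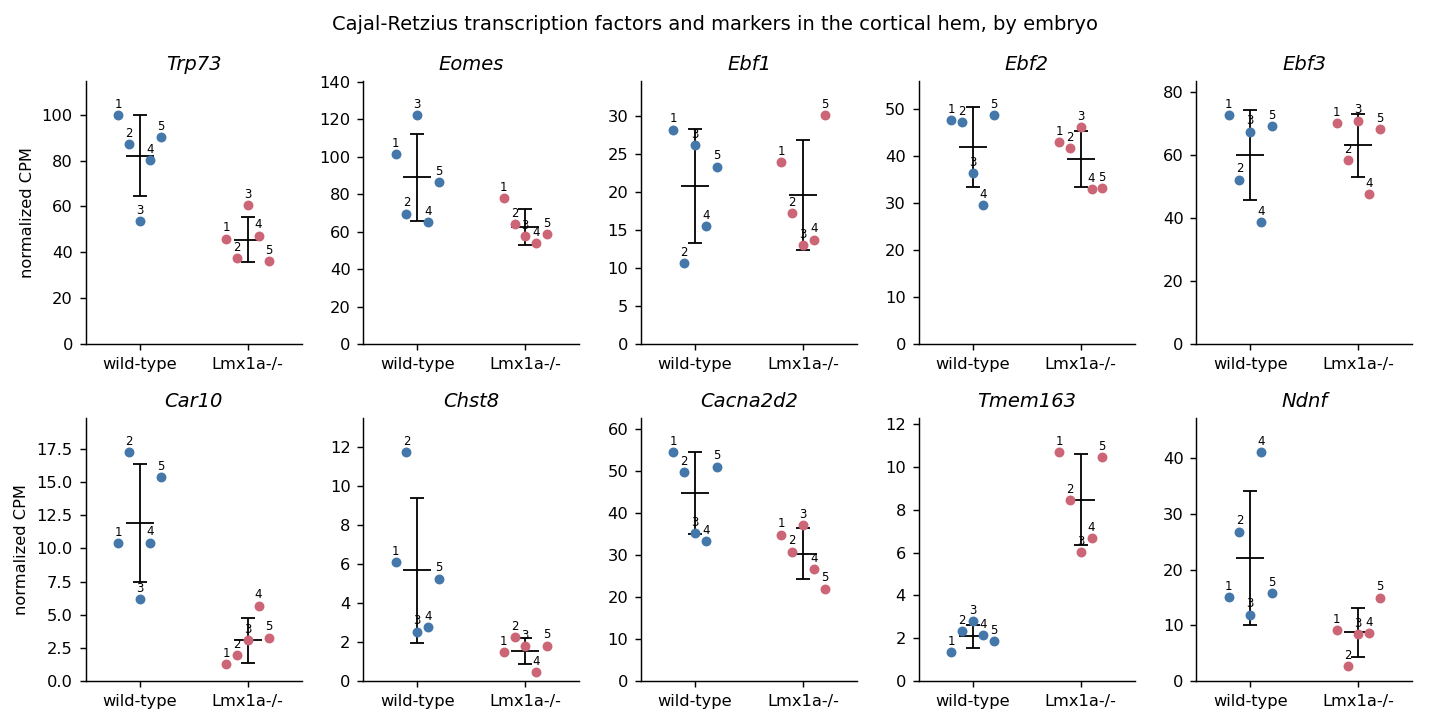
Normalized CPM of the 10 genes in wild-type (blue) and Lmx1a-/- (red) embryos, 1 point per embryo with its number, black bars for the mean and SD (n = 5), and a separate axis from 0 for each gene. The genotypes do not overlap for Car10, Chst8 and Tmem163, and they overlap widely for Ebf1, Ebf2 and Ebf3.

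Among the factor genes, *Trp73* (ENSMUSG00000029026, chr4:154056253-154140208, minus strand of GRCm38) had 99.7, 87.2, 53.5, 80.2 and 90.2 CPM in wild-type embryos 1 to 5. In *Lmx1a*-/- embryos 1 to 5 it had 46.0, 37.6, 60.6, 47.3 and 36.3 CPM. Each genotype had 1 embryo apart from the rest, wild-type embryo 3 at the bottom and *Lmx1a*-/- embryo 3 at the top, and only there did the ranges overlap. By edgeR's quasi-likelihood test this was a log2 fold change of -0.85 (SE 0.17, FDR = 0.0208), a 1.80-fold lower level. *Trp73* passed in each of the 10 fits that left out 1 embryo, with a log2 fold change from -0.98 to -0.77.

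*Eomes* (ENSMUSG00000032446, chr9:118478212-118486132, plus strand) had 101.2, 69.7, 122, 65.2 and 86.6 CPM in wild-type and 78.1, 64.1, 57.4, 54.0 and 58.7 CPM in *Lmx1a*-/- embryos 1 to 5. The highest values were those of wild-type embryos 1, 3 and 5, but wild-type embryos 2 and 4 lay below *Lmx1a*-/- embryo 1, so the genotypes overlapped. The fold change was -0.51 on the log2 scale (SE 0.16), with a 95% interval of -0.86 to -0.16. It did not pass the threshold (edgeR quasi-likelihood FDR = 0.129). It passed without wild-type embryo 4 (FDR = 0.0706) and without *Lmx1a*-/- embryo 1 (FDR = 0.0908), and with DESeq2 (FDR = 0.0406). The study, also with edgeR and an FDR under 0.1, named *Eomes* as lower in these embryos. It further reported weaker Tbr2 staining in *Lmx1a*-/- CH and less *Tbr2* RNA after knockdown of *Lmx1a* in the CH.

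The 3 *Ebf* genes had nearly the same means in both genotypes. *Ebf2* (ENSMUSG00000022053, chr14:67233292-67430918, plus strand) had 47.6, 47.3, 36.4, 29.7 and 48.7 CPM in wild-type and 43.0, 41.7, 46.2, 33.0 and 33.3 CPM in *Lmx1a*-/- embryos 1 to 5. The lowest value belonged to wild-type embryo 4, and the *Lmx1a*-/- embryos lay within the wild-type range. *Ebf3* (ENSMUSG00000010476, chr7:137193673-137314445, minus strand) had 72.7, 52.3, 67.5, 38.8 and 69.2 CPM in wild-type and 70.3, 58.6, 71.0, 47.6 and 68.3 CPM in *Lmx1a*-/- embryos. Its *Lmx1a*-/- embryos also lay within the wild-type range, with embryo 4 the lowest of each genotype. *Ebf1* (ENSMUSG00000057098, chr11:44617317-45008091, plus strand) varied more, from 10.6 (median 23.3) to 28.2 CPM in wild-type and from 13.1 (median 17.2) to 30.1 CPM in *Lmx1a*-/- embryos. Embryo 4 of each genotype also had the lowest summed level of 7 endothelial genes (18.9 and 19.3 CPM). *Ebf1* was lowest elsewhere, in wild-type embryo 2 and *Lmx1a*-/- embryo 3. Among genes of at least 1 CPM, the endothelial cadherin gene *Cdh5* deviated most like *Ebf3* (r = 0.96). Which cells these transcripts came from was not tested.

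The log2 fold changes of *Ebf1*, *Ebf2* and *Ebf3* were -0.09, -0.09 and 0.07, with edgeR quasi-likelihood FDRs of 0.917, 0.819 and 0.880. Their 95% intervals ran from -0.69 to 0.52, from -0.41 to 0.23 and from -0.28 to 0.42. The log2 fold change of *Trp73* (-0.85) therefore lay outside all 3 intervals. The interval of *Trp73* itself, from -1.21 to -0.48, overlapped that of *Ebf1* but not those of *Ebf2* and *Ebf3*. The signs of these small differences were not stable, since that of *Ebf1* turned in 4 of 25 alternative settings, that of *Ebf2* in 1 and that of *Ebf3* in 3.

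Among the marker genes, *Car10* (ENSMUSG00000056158, chr11:93098028-93601749, plus strand), whose start windows are printed above, had 10.4, 17.3, 6.15, 10.4 and 15.4 CPM in wild-type embryos 1 to 5. It had 1.30, 1.96, 3.10, 5.68 and 3.27 CPM in *Lmx1a*-/- embryos 1 to 5. Every *Lmx1a*-/- embryo lay below every wild-type embryo, *Lmx1a*-/- embryo 4 only just below wild-type embryo 3. Its level was 3.86-fold lower (-1.95 ± 0.37, log2 fold change ± SE, FDR = 0.0155 by edgeR), and *Car10* passed in each of the 10 fits without 1 embryo.

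*Chst8* (ENSMUSG00000060402, chr7:34674468-34812711, minus strand) was the least abundant of the lower genes. It had 6.08, 11.7, 2.53, 2.75 and 5.25 CPM in wild-type and 1.46, 2.23, 1.77, 0.471 and 1.81 CPM in *Lmx1a*-/- embryos 1 to 5. The genotypes did not overlap, though wild-type embryos 3 and 4 stood close to the *Lmx1a*-/- embryos and wild-type embryo 2 far above the rest. It fell by 1.88 on the log2 scale (SE 0.47, edgeR quasi-likelihood FDR = 0.0569). The call was lost without wild-type embryo 1 (FDR = 0.114), wild-type embryo 2 (FDR = 0.134), *Lmx1a*-/- embryo 4 (FDR = 0.102) or *Lmx1a*-/- embryo 5 (FDR = 0.107). Between 17 and 260 reads per library stand behind these values.

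*Cacna2d2* (ENSMUSG00000010066, chr9:107399612-107529343, plus strand) had 54.6, 49.8, 35.2, 33.3 and 51.1 CPM in wild-type and 34.9, 30.8, 37.1, 26.7 and 22.0 CPM in *Lmx1a*-/- embryos 1 to 5. Wild-type embryos 1, 2 and 5 lay above all *Lmx1a*-/- embryos, and wild-type embryos 3 and 4 among them. The log2 fold change was -0.56 (SE 0.17, 95% interval -0.93 to -0.20), and the gene did not pass (edgeR quasi-likelihood FDR = 0.113). It passed without wild-type embryo 3 (FDR = 0.0740), wild-type embryo 4 (FDR = 0.0706) or *Lmx1a*-/- embryo 3 (FDR = 0.0817).

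*Ndnf* (ENSMUSG00000049001, chr6:65671590-65712326, plus strand) had 15.0, 26.8, 11.9, 41.2 and 15.7 CPM in wild-type and 9.18, 2.61, 8.38, 8.61 and 15.0 CPM in *Lmx1a*-/- embryos 1 to 5. Wild-type embryo 4 was the highest, and the ranges overlapped because *Lmx1a*-/- embryo 5 lay above wild-type embryo 3. The log2 fold change was -1.33 (SE 0.40, 95% interval -2.19 to -0.46), which did not pass (edgeR quasi-likelihood FDR = 0.114). It passed without wild-type embryo 3 (FDR = 0.0715) or *Lmx1a*-/- embryo 5 (FDR = 0.0901), and without wild-type embryo 4 the log2 fold change was -0.98 (FDR = 0.233).

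*Tmem163* (ENSMUSG00000026347, chr1:127486546-127679548, minus strand) moved the other way. It had 1.34, 2.35, 2.79, 2.13 and 1.85 CPM in wild-type and 10.7, 8.48, 6.03, 6.67 and 10.5 CPM in *Lmx1a*-/- embryos 1 to 5. All *Lmx1a*-/- embryos lay above all wild-type embryos, and no library came close to the other genotype. Its level was 4.04-fold higher (2.01 ± 0.25, log2 fold change ± SE, FDR = 0.00147 by edgeR), and *Tmem163* passed in each of the 10 fits without 1 embryo. Its 3' part overlaps *Mgat5* on the opposite strand, which had 21.5 to 40.0 CPM in wild-type and 30.9 to 43.2 CPM in *Lmx1a*-/- embryos (log2 fold change 0.37, edgeR quasi-likelihood FDR = 0.321).

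Every *Lmx1a*-/- library lay below every wild-type library for 2 of the 10 genes (*Car10* and *Chst8*), against 2.27% of all genes, and above for 1 (*Tmem163*), against 2.17%. Wild-type embryo 1, which carried Y-linked transcripts like the *Lmx1a*-/- embryos, stood on the wild-type side for *Trp73*, *Car10*, *Chst8* and *Tmem163*. This is 1 library, and the part of sex was not tested with it. Genes antisense to *Trp73*, *Eomes*, *Ebf1*, *Ebf2* and *Ebf3* were low, the highest being *Gm6878* within *Ebf2* at 4.26 CPM.

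By role, the median log2 fold change was -0.09 over the 5 factor genes and -1.33 over the 5 marker genes, while the median over all genes tested was -0.005. Of the factor genes 1 was lower past the threshold, and of the marker genes 2 were lower and 1 was higher. The factor genes ranged from -0.85 to 0.07 and the marker genes from -1.95 to 2.01. The difference between these roles was not tested, and 4 of the marker genes but only 2 of the factor genes are among those the study named for a change in these embryos.

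**Figure D2:**
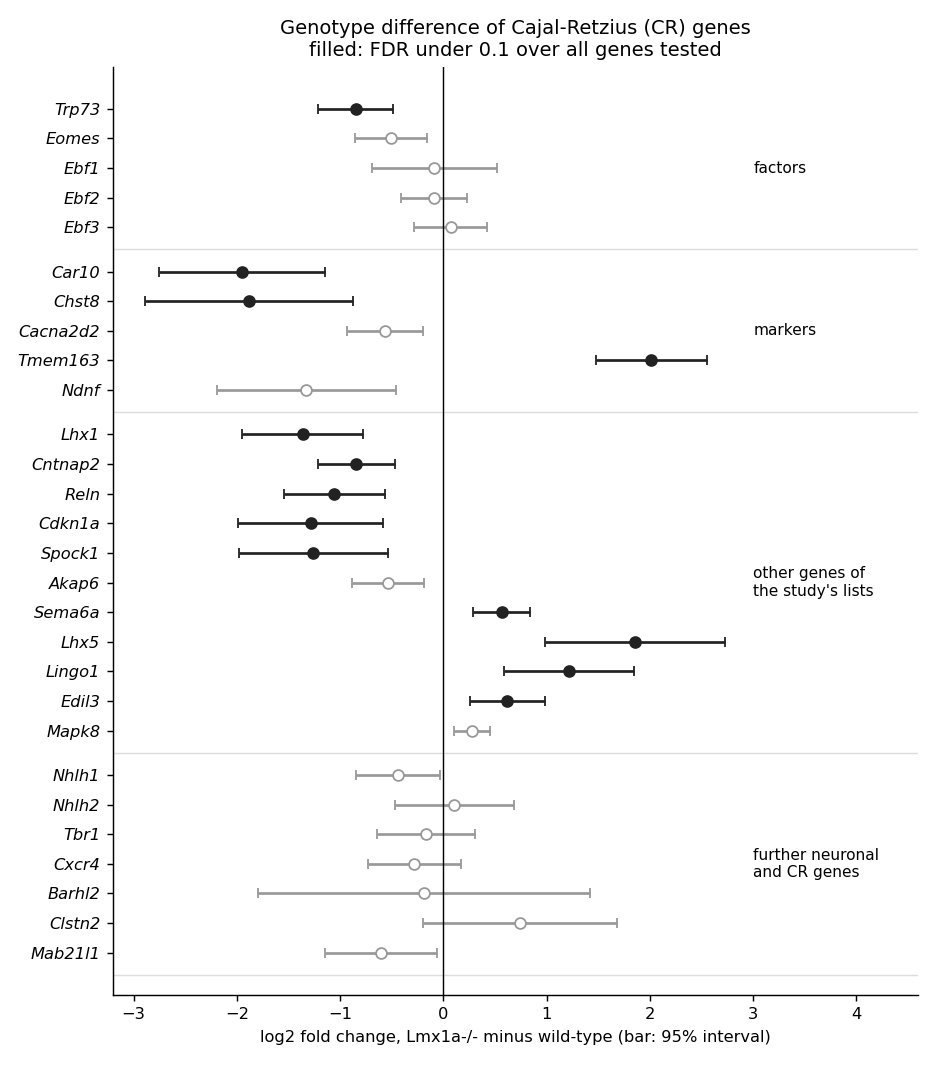
Log2 fold change of Lmx1a-/- against wild-type CH, with its 95% interval, for the 5 factor genes, the 5 marker genes, 11 other genes of the study's CR lists and 7 further genes of CR cells and young neurons, filled where the edgeR FDR was under 0.1. Trp73, Car10 and Chst8 lie left of 0 and Tmem163 at 2.01 right of 0, with the 3 Ebf genes around 0.

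To compare abundance between genes, CPM was divided by the exon length in kb. In wild-type CH the order was *Eomes* (21.4 ± 5.63 CPM per kb, SD, n = 5 embryos), *Trp73* (14.8 ± 3.16), *Ebf3* (6.51 ± 1.54), *Ebf2* (6.06 ± 1.22), *Cacna2d2* (5.64 ± 1.23), *Ndnf* (2.19 ± 1.19), *Ebf1* (2.13 ± 0.763), *Car10* (1.88 ± 0.696), *Chst8* (0.950 ± 0.624) and *Tmem163* (0.487 ± 0.127). The ranges of neighbours in this order overlapped, except between *Trp73* and *Ebf3* and between *Cacna2d2* and *Ndnf*. In *Lmx1a*-/- CH the 5 most abundant genes had the same order, from *Eomes* at 15.0 ± 2.27 to *Cacna2d2* at 3.82 ± 0.770 CPM per kb. *Tmem163* moved from position 10 to position 7, at 1.97 ± 0.497 CPM per kb, and *Chst8* was the lowest, at 0.260 ± 0.111 CPM per kb.

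A ratio to *Trp73* in the same library, in which scaling cancels, asks whether a gene changed by another factor than *Trp73* did. The log2 ratio of *Ebf2* to *Trp73* counts was -1.07, -0.88, -0.55, -1.43 and -0.89 in wild-type and -0.10, 0.15, -0.39, -0.52 and -0.13 in *Lmx1a*-/- embryos 1 to 5. The genotypes did not overlap, and the mean rose by 0.77 (exact two-sided permutation test, p = 0.00794, adjusted p = 0.0357 over 9 ratios). The log2 ratio of *Tmem163* to *Trp73* rose by 2.86, from -5.29 ± 0.707 to -2.44 ± 0.623 (SD, n = 5 embryos, exact permutation p = 0.00794, adjusted p = 0.0357). These 2 of the 9 ratios passed 0.05, and 0.00794 is the smallest p that 5 against 5 libraries can give. All 9 share *Trp73*, itself lower in *Lmx1a*-/- CH (log2 fold change -0.85), so a gene that does not change has a higher ratio. *Ebf2* itself had a log2 fold change of -0.09, so the rise of its ratio mostly restates the fall of *Trp73*. *Tmem163* itself had 2.01, so part of the rise of its ratio comes from *Trp73*.

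The ratio of *Ebf3* to *Trp73* had a mean of -0.46 in wild-type and 0.48 in *Lmx1a*-/- embryos, a difference of 0.94 that did not pass (exact permutation p = 0.0238, adjusted p = 0.0536). That of *Car10* fell from -2.84 to -4.04 (difference -1.20, exact permutation p = 0.0238, adjusted p = 0.0536) and did not pass either. The ratios of *Eomes* (difference 0.36), *Ebf1* (0.77), *Chst8* (-0.95), *Cacna2d2* (0.29) and *Ndnf* (-0.53) had adjusted exact permutation p values from 0.174 to 0.341. With *Reln*, itself also lower in *Lmx1a*-/- CH, as the reference in place of *Trp73*, 3 ratios passed (*Ebf2*, *Ebf3* and *Tmem163*). With 1 embryo left out, 0 to 3 of the ratios passed, and none did when the embryo left out was wild-type 4 or *Lmx1a*-/- 1, 2, 3 or 5. Over the fits with 1 embryo left out the difference stayed between 0.65 and 0.87 for *Ebf2* and between 2.63 and 3.115 for *Tmem163*.

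**Figure D3:**
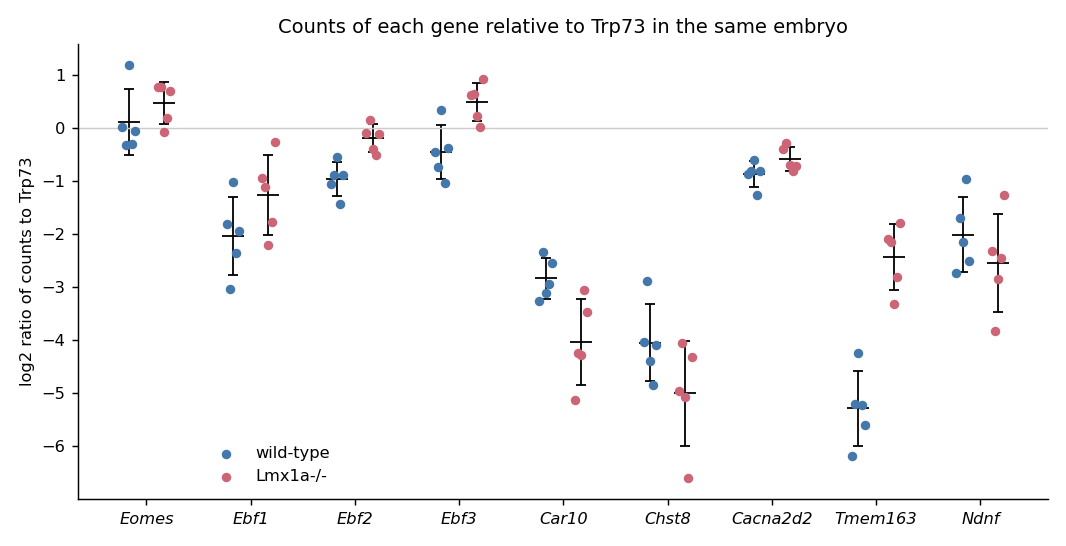
Log2 ratio of the counts of 9 genes to those of Trp73 in the same library, for wild-type (blue) and Lmx1a-/- (red) embryos, with the mean and SD in black (n = 5). The genotypes do not overlap for Ebf2 and Tmem163.

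Whether the genes moved together from embryo to embryo was asked on the log2 CPM minus the genotype mean, so that the genotype difference itself does not enter. Of the 45 pairs, 23 had a positive and 22 a negative Pearson's r, with a median of 0.004. Among the 10 pairs of factor genes 7 were positive (median 0.40), among the 10 pairs of marker genes 5 were positive (median -0.01), and among the 25 mixed pairs 11 were positive (median -0.06). All pairs share the same 10 libraries, so these counts are a description.

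A single pair, *Ebf2* and *Cacna2d2*, passed after adjustment over the 45 pairs. Its Pearson's r was 0.94 (n = 10 embryos, exact permutation within genotypes, p = 0.000625, adjusted p = 0.0281) and its Spearman's rho 0.88 (exact permutation p = 0.00285, adjusted p = 0.128). Wild-type embryos 1, 2 and 5 and *Lmx1a*-/- embryos 1, 2 and 3 were above their genotype mean in both genes, and the other 4 embryos were below it in both. Without the 2 embryos farthest from the median of *Ebf2*, wild-type embryo 4 and *Lmx1a*-/- embryo 4, r was 0.98. With 1 embryo left out r stayed between 0.93 and 0.955, but the pair count ranged from 0 to 2, being 0 without wild-type embryo 2, 3 or 5 or *Lmx1a*-/- embryo 1, 2 or 3, and 2 without wild-type embryo 4.

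*Trp73* and *Tmem163* deviated in opposite directions (r = -0.78, exact permutation p = 0.0190, adjusted p = 0.218, rho = -0.78, exact permutation p = 0.0156, adjusted p = 0.233). Wild-type embryo 3 had the lowest *Trp73* and the highest *Tmem163* of its genotype, and *Lmx1a*-/- embryo 3 the highest *Trp73* and the lowest *Tmem163*. Without these 2 embryos r was -0.57. *Trp73* and *Cacna2d2* deviated together (r = 0.73, exact permutation p = 0.0194, adjusted p = 0.218, rho = 0.83, exact permutation p = 0.00764, adjusted p = 0.172), with r = 0.63 without the same 2 embryos. Neither pair passed after adjustment.

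*Eomes* deviated with *Ebf3* (r = 0.73, exact permutation p = 0.0396, rho = 0.72, exact permutation p = 0.0601) and with *Ebf1* (r = 0.70, exact permutation p = 0.0469, rho = 0.68, exact permutation p = 0.0469), with adjusted p values of 0.309 for both r and of 0.330 and 0.301 for the rho. Without the 2 embryos farthest in *Eomes*, wild-type embryo 3 and *Lmx1a*-/- embryo 1, these r were 0.80 and 0.68. Without the 2 farthest in *Ebf3*, embryo 4 of each genotype, r with *Ebf3* was 0.56. Without the 2 farthest in *Ebf1*, wild-type embryo 2 and *Lmx1a*-/- embryo 5, r with *Ebf1* was 0.90. *Eomes* and *Car10* deviated in opposite directions (r = -0.73, exact permutation p = 0.0122, adjusted p = 0.218, rho = -0.73, exact permutation p = 0.0231, adjusted p = 0.233), and without wild-type embryo 3 and *Lmx1a*-/- embryo 1 r was -0.37. *Ebf2* and *Chst8* had r = 0.69 (exact permutation p = 0.0480, adjusted p = 0.309) and rho = 0.44 (exact permutation p = 0.223, adjusted p = 0.655), with r = 0.51 without wild-type embryo 4 and *Lmx1a*-/- embryo 4. *Car10* and *Chst8*, which both fell in *Lmx1a*-/- CH, had r = -0.03 (exact permutation p = 0.939, adjusted p = 0.969) and rho = 0.12 (exact permutation p = 0.775, adjusted p = 0.872) within genotypes. This r was 0.66 without *Lmx1a*-/- embryos 1 and 4, and 0.44 without wild-type embryo 3 and *Lmx1a*-/- embryo 4.

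**Figure D4:**
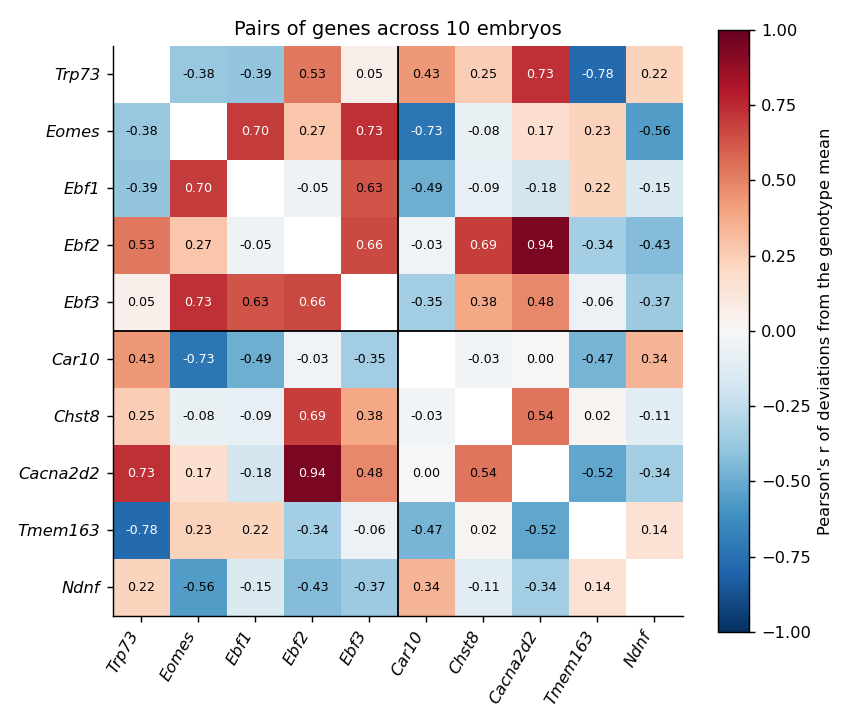
Pearson's r of every pair of the 10 genes over 10 embryos, each gene as log2 CPM minus its genotype mean, with black lines between the factor genes and the marker genes. The highest r is 0.94 for Ebf2 and Cacna2d2, and the lowest is -0.78 for Trp73 and Tmem163.

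**Figure D5:**
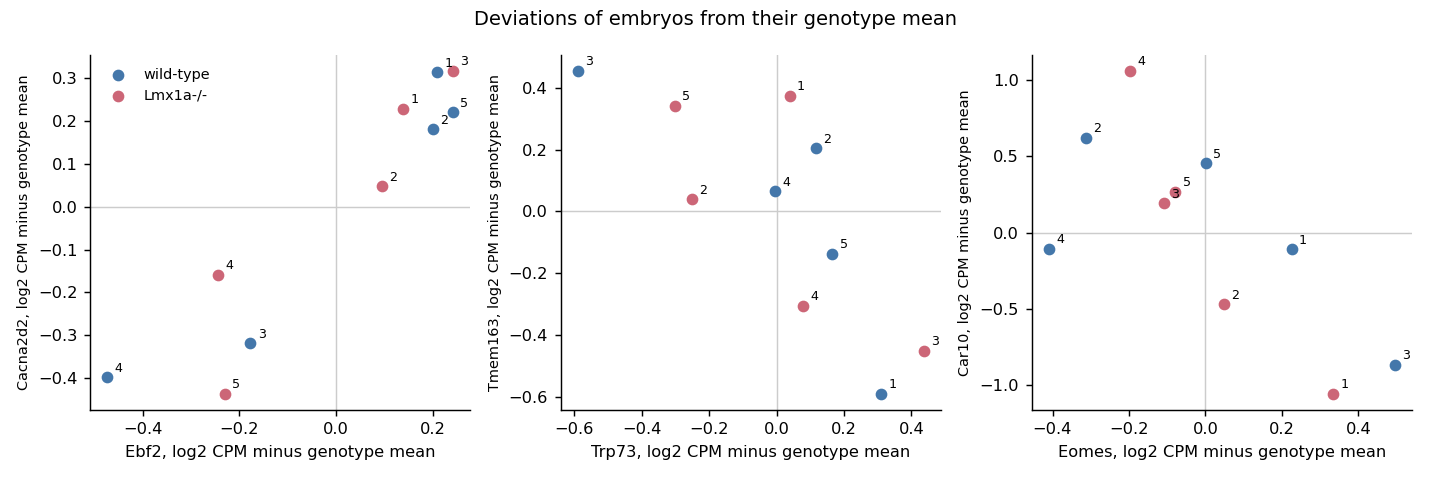
Deviation of each embryo (wild-type blue, Lmx1a-/- red, with its number) from its genotype mean, in log2 CPM, for 3 pairs of genes. Ebf2 and Cacna2d2 rise together (r = 0.94), while Trp73 against Tmem163 (r = -0.78) and Eomes against Car10 (r = -0.73) fall, neither passing after adjustment.

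The embryos thus did not share a common order over the 10 genes. Wild-type embryo 3 had the lowest *Trp73*, *Car10*, *Chst8* and *Ndnf* of the wild-type embryos and the highest *Eomes* and *Tmem163*. Wild-type embryo 4 had the lowest *Eomes*, *Ebf2*, *Ebf3* and *Cacna2d2* and the highest *Ndnf*.

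Other genes of CR cells also moved in both directions. Of 11 further genes that the study lists for CR cells in these embryos, 5 were lower and 4 were higher past the threshold, a count that is not independent evidence of their direction. *Reln*, which encodes Reelin, fell from 199 ± 64.7 to 95.8 ± 26.4 CPM (SD, n = 5 embryos, log2 fold change -1.06, edgeR FDR = 0.0308), and the LIM homeodomain gene *Lhx1* from 17.4 ± 4.98 to 6.76 ± 2.62 CPM (-1.36, FDR = 0.0210). Its relative *Lhx5* rose, from 0.896 to 2.75 CPM in wild-type and from 2.64 to 9.64 CPM in *Lmx1a*-/- embryos (1.86, edgeR FDR = 0.0324). The adhesion gene *Cntnap2* fell (-0.84, edgeR FDR = 0.0248) and the semaphorin gene *Sema6a* rose (0.56, edgeR FDR = 0.0410). Of 7 tested genes of a textbook list, 0 passed by edgeR or by DESeq2, and 2 had an unadjusted p under 0.05. These 2 were *Nhlh1* (-0.44, edgeR FDR = 0.268) and *Mab21l1* (-0.61, edgeR FDR = 0.247), and the T-box gene *Tbr1*, the closest relative of *Eomes*, had -0.17 (edgeR FDR = 0.760).

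The relatives of the 10 genes were compared as well. Of the p53 family, *Trp53* had 104 ± 16.2 and 97.8 ± 14.4 CPM (SD, n = 5 embryos, edgeR FDR = 0.769), and *Trp63* had 5.45 to 152 CPM in wild-type and 0.924 to 17.8 CPM in *Lmx1a*-/- embryos (edgeR FDR = 0.181). The T-box gene *Tbx21* lay at or under 0.887 CPM in every library. *Ebf4*, the remaining *Ebf* gene, had a log2 fold change of 0.24 (edgeR FDR = 0.610). No stretch of 50 bases was shared between transcripts of the 4 *Ebf* genes, nor between those of the 3 p53 family genes. Shorter stretches and reads with mismatches were not examined.

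*Zfp423* and *Zfp521* encode zinc finger proteins that bind Ebf factors. *Zfp423* rose, from 159 ± 28.3 to 212 ± 18.1 CPM (SD, n = 5 embryos, log2 fold change 0.41, edgeR FDR = 0.0874), and *Zfp521* fell, from 382 ± 70.4 to 261 ± 39.5 CPM (-0.55, edgeR FDR = 0.0514). Thus these partner genes moved in opposite directions beside *Ebf* genes that did not pass.

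Of the calcium channel subunit genes related to *Cacna2d2*, *Cacna2d1* and *Cacna2d3* passed as lower. *Cacna2d1* fell from 145 ± 26.5 to 71.1 ± 8.34 CPM (SD, n = 5 embryos, log2 fold change -1.03, edgeR FDR = 0.00157) and *Cacna2d3* from 127 ± 24.9 to 91.6 ± 3.29 CPM (-0.47, edgeR FDR = 0.0535), and in both every *Lmx1a*-/- library lay below every wild-type library. *Cacna2d4*, at most 2.24 CPM, had -0.95 (edgeR FDR = 0.336). Of the sulfotransferase genes *Chst10*, *Chst11*, *Chst12* and *Chst14*, 0 passed by edgeR or by DESeq2 and 0 had an unadjusted p under 0.05, with log2 fold changes from -0.65 to -0.20, and *Chst9* and *Chst13* were not tested. *Car11*, which like *Car10* encodes a protein without catalytic activity, had 0.86 (edgeR FDR = 0.274), and *Car8* was not tested.

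Markers of other cells in or near the CH were read as background to these values. Of 13 pan-neuronal genes 0 passed by edgeR or by DESeq2, with 3 higher at an unadjusted p under 0.05 and summed levels of 900.5 to 1428 CPM in wild-type and 1017 to 1584 CPM in *Lmx1a*-/- embryos. Of 10 intermediate progenitor genes 0 passed by edgeR and 1 with DESeq2, 1 having an unadjusted p under 0.05. Of 13 choroid plexus genes 4 were lower by edgeR, among them *Ttr* and *Car12*, and 8 were lower with DESeq2. By edgeR 10 of the 13 were lower at an unadjusted p under 0.05, against 8.7% of all genes, with a median log2 fold change of -1.31. Their summed levels were 141.6 to 499 CPM in wild-type and 154.5 to 235 CPM in *Lmx1a*-/- embryos. Wild-type embryo 3 was the lowest of all, as it was the lowest wild-type embryo for *Trp73* and *Car10*. Of 12 mural and mesenchymal genes 3 were lower, and of 7 CH genes 4 were lower and 1, *Lmx1a* itself, was higher. The summed level of the CH genes was also lowest in wild-type embryo 3 (1156 CPM, against 1386 to 2019 CPM in the other libraries). Of 7 subpallial neuron genes 1 was higher (*Dlx5*), as was 1 of 6 genes of the cortical neuroepithelium (*Emx2*). Of 7 endothelial, 6 erythroid and 5 microglial genes 0 passed by edgeR, with 1, 3 and 0 at an unadjusted p under 0.05 and 0, 3 and 0 past the threshold with DESeq2. The part of these cells in the differences of the 10 genes was not tested beyond the covariates given.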

How the data were processed

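RNA of laser-captured CH at e13.5 was sequenced by the study from 5 wild-type and 5 *Lmx1a*-/- embryos. The authors checked reads with FastQC 0.11.8, trimmed them with Trimmomatic, aligned them to GRCm38 with STAR 2.7.1a and the Ensembl annotation, and counted them with HTSeq 0.11.2, as the methods and the submitters' processing notes state. The deposited values are these counts per gene, without normalization, and the strand setting of HTSeq is not given in the sources used here, so reads of overlapping antisense genes are uncertain. Of 52508 rows, 281 repeat another row exactly and were dropped. Groups and embryo numbers come from the labels, and no column of another sample was present. Symbols come from a table of Ensembl names, positions and exon lengths from GENCODE M21 (GRCm38), and start windows from RefSeq (GRCm38.p6).

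The 21664 genes that reached 10 counts in 3 or more libraries were tested with R 4.3.3 and edgeR 4.0.16, using TMM scaling and the quasi-likelihood test on a trended dispersion with all 10 libraries and no covariate. An FDR (Benjamini-Hochberg) under 0.1 over all genes was the threshold. CPM are TMM-scaled, and SEs were obtained from the F statistic. Library totals lay between 19145952 and 36462780 counts, and between 17 and 4149 reads of each of the 10 genes were counted per library. Pairs of genes were tested over all 14400 orders of libraries within genotypes on log2 CPM (prior count 0.5), and ratios over all 252 assignments of libraries, two-sided, with Benjamini-Hochberg adjustment over 45 pairs or 9 ratios and 0.05 as the threshold. A ratio alone at the smallest p would have an adjusted p of 0.0714 and could not pass. The fits were tested on simulated data.

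All 10 genes were named in full, with *Lmx1a*, their relatives, up to 5 genes of each marker list with the smallest p, and for *Trp73*, *Eomes*, *Ebf3* and *Tmem163* the 3 genes of at least 1 CPM most like them. The genes and lists were chosen with earlier results of these data known. Alternatives were RLE, upper-quartile or no scaling, other filters, DESeq2 1.42.0, edgeR's likelihood ratio test and newer quasi-likelihood method, an FDR of 0.05, a block for the embryo number, covariates (*Xist*, choroid plexus, pan-neuronal), each embryo left out, and the repeated rows kept. A covariate from 10 genes of the surface epithelium was chosen after seeing the data.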

Additional observations from a re-analysis of the deposited data

Results flagged for a closer look

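Of 98 groups of 5 libraries examined (each tested CR, CH or related gene in each genotype), 1 held a library far from the others by Dixon's gap test, and chance alone flags about 1 group in 20. *Trp63*, the p53 family member of surface epithelium, reached 151.6 CPM in wild-type embryo 4, while its other wild-type values ran from 5.45 to 24.1 CPM. In the same library 10 genes of the surface epithelium summed to 1659 CPM, against 47.8 to 203 CPM in the other wild-type and 8.25 to 136 CPM in the *Lmx1a*-/- embryos, and *Ndnf* was also highest there. Of these 10 genes, a list written after this library was seen, 2 were lower in *Lmx1a*-/- CH (edgeR, FDR under 0.1). All 10 were lower at an unadjusted p under 0.05 (edgeR), with a median log2 fold change of -3.01. The log2 fold change of *Ndnf* was -1.33 with all libraries and -0.98 without this embryo. With the mean of these genes as a covariate it was -0.53. With this covariate *Car10* (-2.30) and *Tmem163* (2.10) passed, while *Trp73* (-0.75, edgeR FDR = 0.230) and *Chst8* (-1.98, edgeR FDR = 0.302) did not.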

How the results depend on the processing

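Of the 10 genes, 3 were lower past the threshold, but 5 with no filter on low counts, with at least 1 CPM in 5 libraries or with the newer quasi-likelihood method, 6 with DESeq2 or the likelihood ratio test, 1 with the surface epithelium covariate (chosen after seeing the data) and 0 with *Xist* or choroid plexus genes as the covariate, under both of which 0 genes were higher, in place of 1, while *Tmem163* had log2 fold changes of 2.675 and 1.775 and *Trp73* of -1.09 and -0.25. Over all genes tested, 497 were lower and 373 higher. With no filter 519 were lower and 348 higher, and with at least 1 CPM in 5 libraries 578 and 437. By the newer quasi-likelihood method 663 were lower and 519 higher. The filters also change how many genes are tested. The lower and higher counts were 976 and 790 with DESeq2, 251 and 197 at an FDR of 0.05, 24 and 1 with the *Xist*, 7 and 1 with the choroid plexus, 212 and 187 with the pan-neuronal and 120 and 55 with the surface epithelium covariate, and 805 were lower by the likelihood ratio test. The cause of these shifts was not tested. With 1 embryo left out, 2 to 5 of the 10 genes were lower and 1 was higher, 261 to 604 of all genes were lower and 190 to 455 higher, 0 to 2 pairs and 0 to 3 ratios passed. By Spearman's rho 0 pairs passed, and with *Lhx5*, itself higher in *Lmx1a*-/- CH, as the reference 8 ratios passed.

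The replicate block for the embryo number gave 3 lower and 1 higher of the 10 genes, and 248 higher genes overall. Embryos with the same number did not deviate together over all genes (r from -0.082 to 0.009). The labels do not give the litter of each embryo, so whether the number pairs littermates cannot be told. The sign turned for *Ebf3* with the *Xist* (-0.18) and pan-neuronal (-0.0159) covariates and for *Ebf2* with the choroid plexus covariate (0.28). With 1 embryo left out *Ebf1* ranged from -0.29 to 0.0473 and *Ebf3* from -0.0565 to 0.15. *Car10* and *Tmem163* passed in 23 of 25 settings, *Trp73* in 22 and *Chst8* in 16, and none of these 4 changed direction.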

Other observations

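The genes most like 4 of the 10 genes in their deviations from the genotype mean over the 10 libraries are given as a description, among genes of at least 1 CPM. For *Trp73* they were *Slc14a2* (r = 0.98), *Gm39307* (r = 0.95) and the CH gene *Wnt3a* (r = 0.935). *Slc14a2* fell as *Trp73* did, from 80.4 to 37.7 CPM (log2 fold change -1.09, edgeR FDR = 0.00447), and *Wnt3a* had 68.9 and 50.5 CPM (edgeR FDR = 0.172). For *Eomes* they were *Mcam*, *Nhlh1* and *Mrpl4* (r = 0.96 each). *Nhlh1*, which encodes a helix-loop-helix factor of young neurons, averaged 51.4 CPM in the wild-type libraries and 38.0 CPM in the *Lmx1a*-/- libraries. For *Ebf3* they were the endothelial cadherin gene *Cdh5* (r = 0.96), *Syngr3* (r = 0.945) and *Stard8* (r = 0.93). For *Tmem163* they were *D10Wsu102e*, *Haus5* and *Gm43322* (r = 0.94 each), of which *D10Wsu102e* rose (log2 fold change 0.25, edgeR FDR = 0.0768). These are the highest of many r over 10 libraries and carry no test.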
